A study of Mus musculus with 8 samples.

Results

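The TAM family consists of the receptor tyrosine kinases TYRO3, AXL and MERTK and of the secreted ligands GAS6 and protein S. Its 5 genes, Tyro3, Axl, Mertk, Gas6 and Pros1, were taken by symbol from the 57690 rows of a table of testis transcript levels. The choice by symbol used no measured value, but it was made with earlier results of these data known. Each symbol occurred in 1 row, and all 5 passed the filter for testing. The levels came from bulk RNA of whole testes of C57BL/6 mice aged 8 weeks, and both groups were of this strain. One group had received 2 intraperitoneal injections of 200 µg of an antibody against PD-L1, and the other 2 injections of 200 µg of an IgG2b isotype control. Testes were collected 7 days after treatment, with 4 libraries per group. PD-L1 is the ligand of PD-1, an inhibitory receptor of T cells. No genetic alteration is named in the labels. Nor is it stated whether each library stands for its own mouse, and the p-values thus reflect the scatter among these libraries, which could be technical.

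TAM ligands act as bridges. Their amino-terminal domain, modified by vitamin K-dependent carboxylation, binds phosphatidylserine exposed on a dying cell, and their carboxy-terminal domain binds a TAM receptor on the engulfing cell. In the seminiferous tubule Sertoli cells use this system to clear apoptotic germ cells and the residual bodies shed by spermatids. In macrophages and dendritic cells the same receptors restrain Toll-like receptor and interferon signaling. Protein S is known to bind TYRO3 and MERTK, whereas GAS6 binds all of the receptors.

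None of the TAM genes was called different between the groups. Gas6 was the most abundant, Tyro3 and Axl stood close together, Pros1 came next and Mertk was by far the lowest. Levels are in TPM, a unit scaled to gene length and to a library total of 1000000, so levels can be compared between genes, and read depth is unknown. Differences are given on the scale of log2(TPM + 1). With limma and Benjamini-Hochberg adjustment at 0.05, the count was 0 of the 20343 genes in the test (0%) and 0 of the 5 TAM genes. Before adjustment 1063 genes (5.23%) had p under 0.05, of which 611 had higher and 452 lower values after anti-PD-L1. That split was 498 and 547 after TMM rescaling and 524 and 596 after quantile normalization. None of the TAM genes had such a p with all libraries weighted equally. The groups did not overlap for 2.99% of the genes tested and for 0 of the 5 TAM genes.

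A pair of libraries stood apart from the others. IgG replicate 4 and anti-PD-L1 replicate 1 had 31572 and 31322 rows above 0 TPM, against 29064 to 29904 in the other libraries. Sertoli cell markers were well measured, with 20 of 20 above a mean of 1 TPM. Their summed level was 2752 to 3209 TPM in IgG libraries and 2621 to 3814 TPM in anti-PD-L1 libraries. Macrophage markers, for another cell type that carries TAM receptors, passed that filter in 11 of 14, with summed levels of 81.1 to 100.5 and 87.3 to 111.1 TPM. Only 2 of 12 T and NK cell markers passed it. None of these lists held a gene past the threshold. In bulk tissue fewer cells of a type and less RNA per cell cannot be told apart, and the values do not show which cells held the TAM transcripts.

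Tyro3 encodes the TAM receptor known from the nervous system and testis. It lies on chromosome 2 of mm10, 119797733 to 119818104, on the plus strand. Its level was 20.2, 21.2, 19.1 and 25.4 TPM in IgG replicates 1 to 4 and 23.6, 23.2, 19.3 and 24.7 TPM in anti-PD-L1 replicates 1 to 4. IgG replicate 4 was the highest library and IgG replicate 3 the lowest, so that the IgG group spanned the other entirely. The means were 21.5 ± 2.75 and 22.7 ± 2.33 TPM (SD, n = 4), a log2 difference of 0.08 (SE 0.11). The 95% interval of that difference ran from -0.17 to 0.32 (limma, adjusted p = 0.999). As a ratio of TPM + 1, anti-PD-L1 over IgG, that interval ran from 0.892 to 1.25.

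Axl encodes the receptor with the highest affinity for GAS6. It lies on chromosome 7, 25757273 to 25788705, on the minus strand. For Axl the IgG libraries held 19.6, 21.5, 20.4 and 23.1 TPM and the anti-PD-L1 libraries 23.7, 20.7, 17.6 and 22.7 TPM, in replicate order. Both the highest and the lowest value belonged to anti-PD-L1 libraries, replicates 1 and 3. Its means were nearly equal, 21.2 ± 1.53 and 21.1 ± 2.68 TPM (SD, n = 4). The log2 difference was -0.01 (SE 0.10), with a 95% interval from -0.24 to 0.22 (limma, adjusted p = 0.999).

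Mertk encodes the receptor best known for engulfment by macrophages and by the retinal pigment epithelium. Its locus is on chromosome 2, 128698956 to 128802894, on the plus strand. The IgG libraries held 2.58, 2.78, 2.39 and 4.37 TPM of Mertk and the anti-PD-L1 libraries 3.64, 2.77, 2.53 and 2.86 TPM, in replicate order. The high values were those of the libraries that stood apart, and the other 6 libraries lay between 2.39 and 2.86 TPM. Mertk had means of 3.03 ± 0.907 and 2.95 ± 0.481 TPM (SD, n = 4) and a log2 difference of -0.01 (SE 0.17). Its 95% interval, from -0.41 to 0.39, was the widest of the TAM genes (limma, adjusted p = 0.999). The sign was not stable: leaving out IgG replicate 4 gave 0.13, and leaving out anti-PD-L1 replicate 1, 2 or 3 gave -0.09, 0.008 and 0.04, respectively.

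Gas6, a ligand of all TAM receptors, lies on chromosome 8, 13465374 to 13494490, on the minus strand. IgG libraries had 44.6, 43.3, 42.6 and 42.1 TPM of Gas6 and the anti-PD-L1 libraries 40.8, 49.1, 47.3 and 47.5 TPM, in replicate order. Of the anti-PD-L1 libraries 3 lay above every IgG library, and replicate 1, which stood apart, was the lowest of all. The means were 43.2 ± 1.08 and 46.2 ± 3.64 TPM (SD, n = 4). Gas6 had a log2 difference of 0.09 (SE 0.07) with a 95% interval from -0.06 to 0.24, the narrowest of the TAM genes, and an adjusted p of 0.999 in limma. Without anti-PD-L1 replicate 1 the difference was 0.15 (SE 0.05), with an adjusted p of 0.725 in limma. There 1224 of all genes had a limma p under 0.05 before adjustment, against 1063 with all libraries. The 3' end of Gas6 overlaps that of Tmem255b on the opposite strand, with 34 shared exon bases. Whether the authors counted by strand is not given in the sources used here, but Tmem255b was at 0.1 to 1 TPM.

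Pros1 encodes protein S, which also circulates as an anticoagulant cofactor. It lies on chromosome 16, 62854307 to 62929346, on the plus strand. The IgG libraries held 13.7, 14.6, 15.0 and 19.8 TPM of Pros1 and the anti-PD-L1 libraries 17.7, 17.3, 15.8 and 17.3 TPM, in replicate order. IgG replicate 4 was above every other library, and the remaining IgG libraries were all below the anti-PD-L1 libraries. The share of all genes that separate with such a library left out, as Pros1 and Gas6 do, was not counted. Pros1 averaged 15.8 ± 2.77 and 17.0 ± 0.840 TPM (SD, n = 4), a log2 difference of 0.12 (SE 0.11) with a 95% interval from -0.14 to 0.38 (limma, adjusted p = 0.999). Without IgG replicate 4 the difference was 0.23 (SE 0.07), with an adjusted p of 0.415 in limma. At the same setting 1861 of all genes had p under 0.05 before adjustment, against 1063 with all libraries. Without both libraries that stood apart the differences were 0.21 for Pros1 and 0.14 for Gas6, each at an adjusted p of 0.451 in limma.

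**Figure D1:**
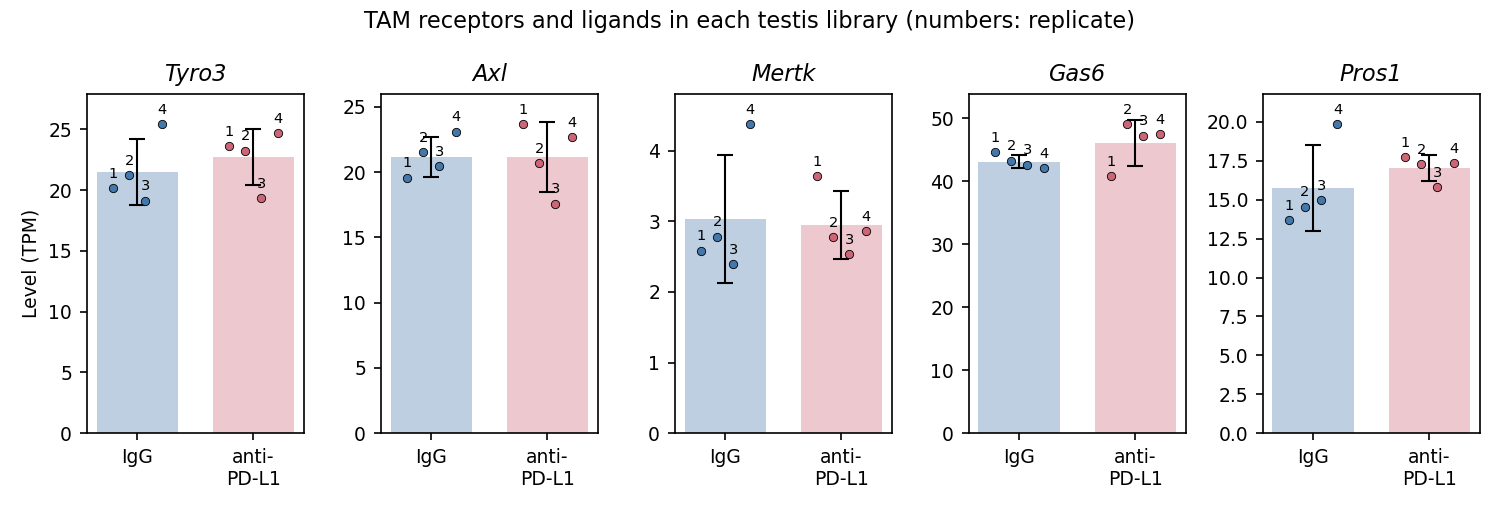
Level of each TAM gene in TPM (vertical axis, from 0) by treatment group; points are libraries with their replicate number, bars the mean and error bars the SD (n = 4). The groups overlap for every gene, IgG replicate 4 is the highest library for Tyro3, Mertk and Pros1, and anti-PD-L1 replicate 1 is the lowest for Gas6.

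**Figure D2:**
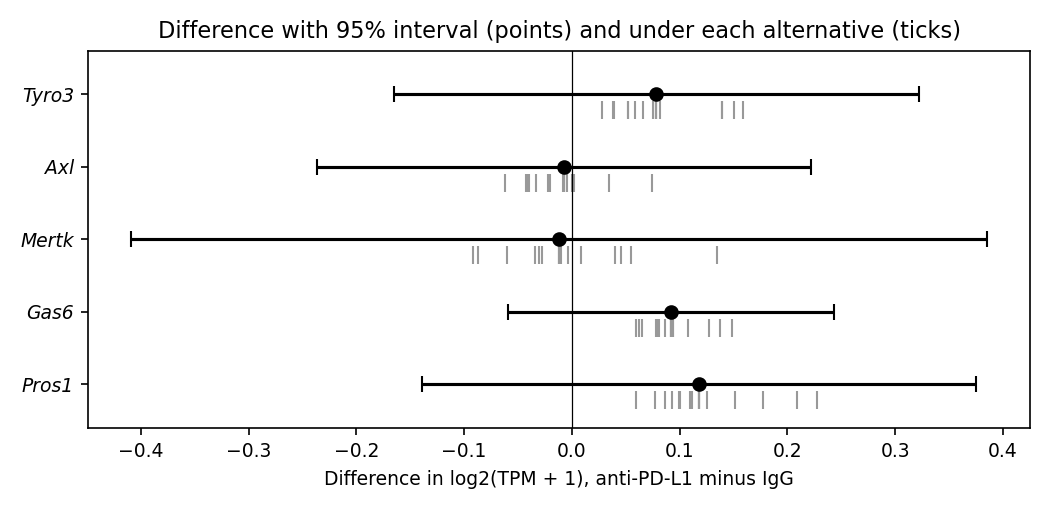
Difference in log2(TPM + 1), anti-PD-L1 minus IgG, for each TAM gene; points and lines are the limma estimate with its 95% interval, and grey ticks the estimates under each alternative processing. All 5 intervals include 0, and the ticks of Axl and Mertk lie on both sides of it.

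The order of the levels was the same in most libraries. Over all 8 libraries the means were 44.7 TPM for Gas6, 22.1 for Tyro3, 21.1 for Axl, 16.4 for Pros1 and 2.99 for Mertk. Gas6 was above Tyro3 in 8 of 8 libraries, at 1.66 to 2.44 times its level. Tyro3 and Axl did not differ beyond their spread: Tyro3 was the higher in 5 of 8 libraries, and their ratio ran from 0.936 to 1.12. Axl was above Pros1 in 8 of 8 libraries, but by as little as 1.11 times, and their ranges over libraries overlapped. Mertk was the lowest in every library, with Pros1 at 4.54 to 6.26 times its level.

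Receptor transcripts were therefore divided between Tyro3 and Axl with little Mertk. Of the summed receptor TPM, Tyro3 made up 47.0% ± 1.10 in IgG and 48.6% ± 1.51 in anti-PD-L1 libraries, and Axl 46.5% ± 2.12 and 45.1% ± 0.978 (SD, n = 4). The share of Mertk was 5.69% to 8.26% over the 8 libraries, with the highest share in IgG replicate 4. Gas6 made up 73.3% ± 3.73 of the ligand TPM in IgG libraries and 73.0% ± 2.26 in anti-PD-L1 libraries (SD, n = 4). The summed ligands stood at 1.15 to 1.60 times the summed receptors, and the lowest ratio was that of anti-PD-L1 replicate 1. No test was made of these shares.

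Gas6 varied least between libraries, with a coefficient of variation of 6.63% over the 8 libraries and a highest value 1.20 times its lowest. Axl, Tyro3 and Pros1 followed at 9.56%, 11.1% and 12.3%, and Mertk at 22.5%. Mertk stood at 14.6% without IgG replicate 4 and at 6.79% without both libraries that stood apart, where Gas6 was at 5.65%. Of the 10 pairs of TAM genes, 4 passed a Benjamini-Hochberg adjusted p of 0.05 for Pearson's r over the 8 libraries in a two-sided exact permutation test, all 4 with an adjusted p of 0.0375. They were Tyro3 with each of Axl, Mertk and Pros1, and Mertk with Pros1. None of the 4 passed after TMM rescaling or without both libraries that stood apart.

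Tyro3 and Pros1 were correlated with r = 0.837 (exact permutation p = 0.0136) and Spearman's rho = 0.786 (exact permutation p = 0.0279). Tyro3 and Mertk had r = 0.792 (exact permutation p = 0.00729) and rho = 0.952 (exact permutation p = 0.00114). For Mertk and Pros1 r was 0.814 (exact permutation p = 0.00749) and rho 0.738 (exact permutation p = 0.0458). For Tyro3 and Axl r was 0.811 (exact permutation p = 0.0150) and rho 0.833 (exact permutation p = 0.0154). By rho, adjusted over the 10 pairs, Tyro3 with Mertk passed at 0.0114 and Axl with Mertk at 0.0228 in the exact permutation test. Without the 2 libraries farthest from the median of the first gene, r was 0.967 for Tyro3 and Pros1, 0.708 for Tyro3 and Mertk, 0.787 for Tyro3 and Axl and 0.505 for Mertk and Pros1. The last pair thus rested on IgG replicate 4 and anti-PD-L1 replicate 1, which were the libraries left out there.

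Gas6 had r = -0.04 with Tyro3, -0.07 with Pros1, -0.50 with Axl and -0.50 with Mertk, with exact permutation p from 0.207 to 0.914. By rho these pairs stood at -0.119, -0.262, -0.500 and -0.357, with exact permutation p from 0.216 to 0.793. Without the 2 libraries farthest from the median of Gas6, anti-PD-L1 replicates 2 and 4, Gas6 and Pros1 had r = -0.474. Without the 2 farthest from the median of the other gene, Gas6 had r = -0.009 with Tyro3, -0.108 with Axl and 0.497 with Mertk. Among the 6 libraries left without those that stood apart, Gas6 had r = 0.60 with Tyro3 and 0.80 with Pros1, with exact permutation p of 0.221 and 0.0764. With Mertk it had r = 0.50, and with Axl -0.09. For Tyro3, Pros1 and Mertk the sign thus changed without that pair of libraries, although for Tyro3 and Pros1 r over all libraries was near 0. Among the same 6 libraries Tyro3 and Mertk had r = 0.904 (exact permutation p = 0.0167), Tyro3 and Axl 0.732, Tyro3 and Pros1 0.714 and Mertk and Pros1 0.505, and 0 of the 10 pairs passed after adjustment. The count was also 0 of 10 after TMM rescaling, which allows for transcripts that fill a larger part of some libraries. After that rescaling, over all 8 libraries, Gas6 had r = -0.794 with Mertk and -0.700 with Axl (exact permutation p = 0.0241 and 0.0435). It had r = -0.384 with Pros1 and -0.329 with Tyro3, so each was more negative than without the rescaling. Groups of 4 libraries are too small for a correlation within each group.

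**Figure D3:**
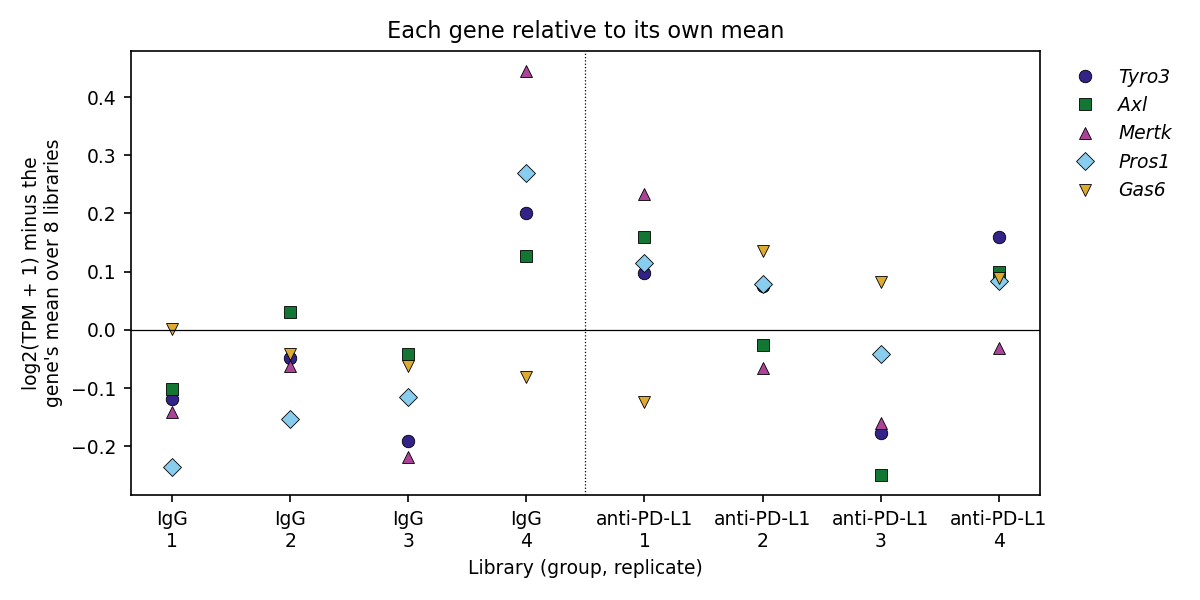
Each TAM gene's log2(TPM + 1) minus its own mean over the 8 libraries (vertical axis), by library (horizontal axis, group and replicate). Tyro3, Axl, Mertk and Pros1 all lie above their means in IgG replicate 4 and anti-PD-L1 replicate 1, where Gas6 lies below its mean.

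The libraries also differed in germ cell and Sertoli cell transcripts. The 12 elongating spermatid markers, led by the protamine genes Prm1 and Prm2, made up 6.39% to 8.28% of all TPM, highest in IgG replicate 3 and lowest in anti-PD-L1 replicate 4. All 12 had negative log2 differences between the groups, with a median of -0.12, and 0 passed the limma threshold. Over all genes tested 58.3% were positive and the median was 0.03. Against the mean log2(TPM + 1) of these markers Tyro3 had r = -0.86 and Pros1 r = -0.83 (exact permutation p = 0.0149 and 0.0146). Their rho was -0.81 and -0.83 (exact permutation p = 0.0218 and 0.0154), and r was -0.82 and -0.85 without the 2 libraries farthest from the median. Tyro3 also went with the spermatogonia markers, with r = 0.956 and rho = 0.929 (exact permutation p = 0.00136 and 0.00223), and with the Sertoli cell markers, with r = 0.896 and rho = 0.905 (exact permutation p = 0.00283 and 0.00456). Without the 2 farthest libraries these r were 0.931 and 0.874. Pros1 likewise had r = 0.852 and rho = 0.762 with the spermatogonia markers (exact permutation p = 0.00965 and 0.0368). Its r was 0.844 without the 2 farthest libraries, and its adjusted p was 0.149 by exact permutation. Of the 50 relations between a TAM gene and a cell type list, 0 passed after adjustment by the exact permutation test, with 7 at an unadjusted p under 0.05. The adjusted p for Tyro3 was 0.0682 with spermatogonia and 0.0707 with Sertoli cell markers, again by exact permutation. All of these values share a library total, since TPM is a share of it. After TMM rescaling Tyro3 had r = -0.862 with elongating spermatid, 0.915 with spermatogonia and 0.817 with Sertoli cell markers. Pros1 then had r = -0.860 with elongating spermatid and 0.721 with spermatogonia markers. Again 0 of the 50 relations passed after adjustment. The part of the shared total in the TAM genes' levels was not tested.

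Gas6 had r = 0.126 with the Sertoli cell markers and rho = 0.119 (exact permutation p = 0.757 and 0.793). Axl, Mertk and Pros1 had r = 0.718, 0.538 and 0.567 with them, at exact permutation p of 0.0447, 0.163 and 0.143, and rho of 0.690, 0.762 and 0.643, at exact permutation p of 0.0694, 0.0368 and 0.0962. For Axl r was 0.373 without the 2 farthest libraries, anti-PD-L1 replicates 3 and 4. With macrophage markers r ran from -0.26 for Gas6 to 0.426 for Mertk and rho from -0.36 to 0.381, with exact permutation p from 0.292 to 0.621 for both measures. Gas6 had r = 0.722 and rho = 0.643 with round spermatid markers (exact permutation p = 0.0487 and 0.0962). With endothelial markers it had r = -0.65 and rho = -0.71 (exact permutation p = 0.0812 and 0.0576). Without the 2 farthest libraries these r were 0.264 and -0.87.

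The genes with the most similar pattern were picked by r over the 8 libraries, among genes averaging 5 TPM or more, and are a description. For Tyro3 they were Hpcal1, a neuronal calcium sensor gene, Adgrg1, an adhesion G protein-coupled receptor, and Maged1, each at r of 0.985 or 0.986. For Axl they were Rbsn, a gene of early endosome trafficking, at 0.988, Slc25a14, a mitochondrial carrier, at 0.973, and Ndst1, a heparan sulfate enzyme, at 0.972. Mertk was closest to Tmeff1, Nrde2 and Tex9, at 0.986, 0.985 and 0.984. Among the genes most like Pros1 were Aox3, an aldehyde oxidase, at 0.980, and Tbl1x at 0.977. Gas6 was closest to Creld2, a gene of the endoplasmic reticulum, at 0.965, Arf3 at 0.955 and Lrrcc1 at 0.947. Creld2 was at 218 to 221 TPM in IgG libraries and at 212, 255, 243 and 241 TPM in anti-PD-L1 replicates 1 to 4, low in the same library as Gas6.

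The promoters of Tyro3 and Pros1, a pair whose correlation passed over the 8 libraries, are shown beside that of Gas6, whose correlations did not. Without the libraries that stood apart that contrast was not seen, with r = 0.714 for Tyro3 and Pros1 and 0.802 for Gas6 and Pros1. Each runs from 250 bases before to 50 bases after the RefSeq start in GRCm38.p6, the assembly of mm10, written in the direction of transcription. Capitals mark GC boxes, here the letters GGGCGG or, for the other strand, CCGCCC, with overlapping matches run together. The windows are chr2:119799264-119799563 (plus strand) for Tyro3, chr16:62854057-62854356 (plus strand) for Pros1 and chr8:13494486-13494785 (minus strand) for Gas6.
Tyro3: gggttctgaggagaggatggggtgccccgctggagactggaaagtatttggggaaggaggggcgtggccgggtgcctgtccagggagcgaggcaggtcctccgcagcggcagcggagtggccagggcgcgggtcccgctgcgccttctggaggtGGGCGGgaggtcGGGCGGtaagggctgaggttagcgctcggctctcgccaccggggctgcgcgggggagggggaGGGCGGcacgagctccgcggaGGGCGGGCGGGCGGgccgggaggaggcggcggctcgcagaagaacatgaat
Pros1: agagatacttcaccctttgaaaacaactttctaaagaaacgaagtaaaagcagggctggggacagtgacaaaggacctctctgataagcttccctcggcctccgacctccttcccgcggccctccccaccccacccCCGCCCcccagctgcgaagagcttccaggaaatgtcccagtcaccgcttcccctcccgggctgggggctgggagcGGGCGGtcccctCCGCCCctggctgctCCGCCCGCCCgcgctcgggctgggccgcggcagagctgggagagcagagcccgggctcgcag
Gas6: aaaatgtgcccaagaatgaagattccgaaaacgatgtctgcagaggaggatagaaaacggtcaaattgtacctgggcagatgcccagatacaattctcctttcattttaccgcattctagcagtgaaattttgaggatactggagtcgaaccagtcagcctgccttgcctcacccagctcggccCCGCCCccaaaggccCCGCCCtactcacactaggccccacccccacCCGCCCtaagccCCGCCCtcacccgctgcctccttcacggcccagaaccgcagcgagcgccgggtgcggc
With overlapping matches counted separately, Tyro3 held 6 matches, Pros1 5 and Gas6 4, and the promoters of Mertk and Axl held 4 and 2. Some matches of Tyro3 and of Pros1 overlapped, and those of Gas6 did not. At least 1 match occurs in 35.7% of the 32851 promoters of this length, and at least 4 matches in 5.49%. GC content was 73.3% for Tyro3, 66.7% for Pros1 and 58.3% for Gas6, against a median of 52.7%. The letters TATAAA, searched on both strands, occurred in none of the 5 windows and in 13.6% of all. A match is a description of the sequence only, and Gas6 held as many as Mertk. The RefSeq start of Tyro3 lies inside the GENCODE span given above, so that gene has more than 1 annotated start.

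Genes that work with the TAM system were taken from 6 lists, and 0 genes of any list passed the limma threshold in either direction. Of the efferocytosis receptors and bridging molecules, 14 of 20 were tested, 8 with positive and 6 with negative differences and a median log2 difference of 0.01. Over all genes tested 58.3% were positive and the median was 0.03. Calr, the chaperone calreticulin, which also marks dying cells at their surface, was at 410 ± 19.6 and 427 ± 26.9 TPM after IgG and anti-PD-L1 (SD, n = 4). Scarb1, a scavenger receptor that binds phosphatidylserine, was at 87.4 ± 8.05 and 83.7 ± 9.41 TPM (SD, n = 4). Mfge8, which bridges phosphatidylserine to integrins, was at 64.0 ± 6.27 and 70.8 ± 16.6 TPM (SD, n = 4). The mean of each of these was above that of every TAM gene. Among the other receptors of the list, the integrin subunit gene Itgb5 averaged 27.2, Lrp1 22.3 and Cd36 8.54 TPM over the 8 libraries. Timd4, Havcr1, Megf10 and Cd300lf had means under 1 TPM and were not tested.

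The engulfment and phagosome list had 15 of 16 genes tested, 9 positive and 6 negative, with a median of 0.04. Its most abundant genes were the lysosomal membrane gene Lamp1 and the autophagy genes Becn1 and Map1lc3b, with log2 differences of 0.04, 0.05 and -0.10. Genes that expose or flip phosphatidylserine, the signal that TAM ligands bind, were tested in 7 of 10, 5 positive and 2 negative, with a median of 0.10. Tmem30a, the shared subunit of the flippases, differed by 0.10 (SE 0.05), at 67.9 ± 2.89 and 73.0 ± 1.77 TPM (SD, n = 4), with an adjusted p of 0.981 in limma. The flippase gene Atp11a differed by 0.12 and Xkr8, a scramblase activated by caspases, by -0.04.

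Downstream and immune restraint genes were tested in 14 of 20, 8 positive and 6 negative, with a median of 0.04. Akt1, a kinase below the receptors, was at 27.9 ± 0.207 and 30.1 ± 1.70 TPM (SD, n = 4), a log2 difference of 0.10 (SE 0.06). The adaptor gene Grb2 differed by 0.18 (SE 0.17) and Nfkbia, an inhibitor of NF-κB, by -0.16 (SE 0.13), each with an adjusted p of 0.999 in limma. Socs1 and Socs3, cytokine signaling inhibitors that TAM receptors are known to induce in dendritic cells, were under 1 TPM and were not tested.

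The vitamin K cycle and other proteins carboxylated by it were tested in 10 of 14, 3 positive and 7 negative, with a median of -0.04. Ggcx, the carboxylase that activates GAS6 and protein S, had a mean of 1.97 TPM over the 8 libraries, with its highest values, 3.81 and 3.42 TPM, in IgG replicate 4 and anti-PD-L1 replicate 1. Vkorc1 and Aifm2, which regenerate vitamin K, differed by 0.05 and -0.03. Mgp, matrix Gla protein, differed by -0.19 (SE 0.17), with 41.9 TPM in IgG replicate 1 and 21.8 to 29.1 TPM in the others. Proteases and inhibitors that bear on receptor shedding were tested in 8 of 8, 7 positive and 1 negative, with a median of 0.11. Adam10, a protease that sheds AXL, was at 10.5 ± 1.16 and 12.2 ± 2.12 TPM (SD, n = 4), a log2 difference of 0.19 (SE 0.13) at an adjusted p of 0.999 in limma. The inhibitors Timp2 and Timp3 differed by 0.09 and -0.00051.

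**Figure D4:**
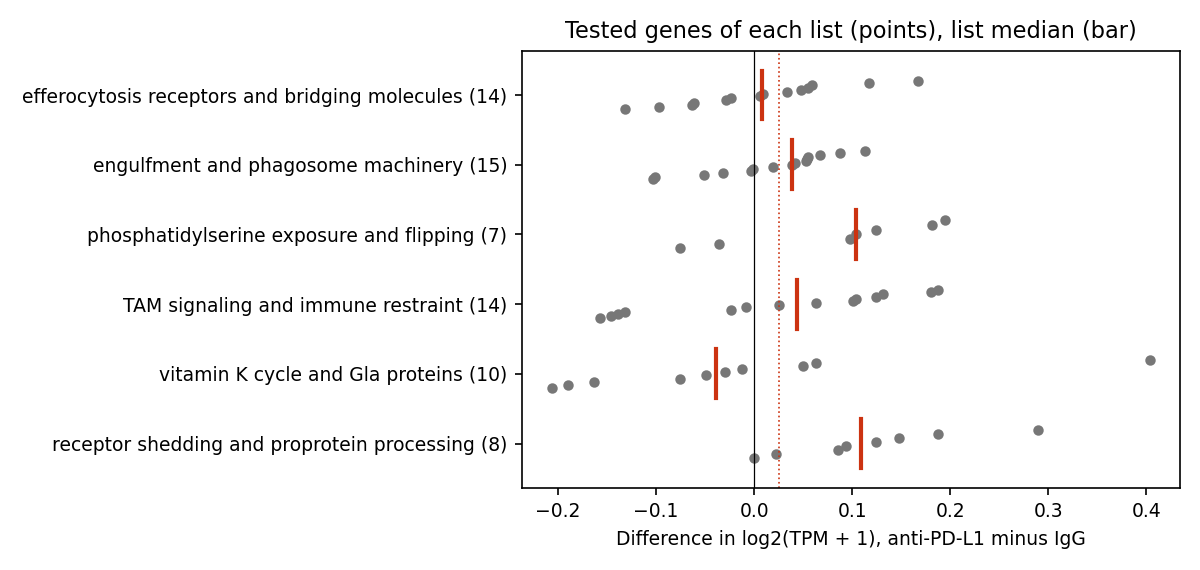
Difference in log2(TPM + 1), anti-PD-L1 minus IgG (horizontal axis), for the tested genes of the 6 lists (points, with the number tested in brackets); red bars are list medians and the dotted line the median of all genes tested, 0.03. List medians lie between -0.04 and 0.11, and no gene passed the limma threshold.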

How the data were processed

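RNA-seq of whole testis was analysed in 8 libraries, 4 per group, grouped and numbered by their titles. The deposited table gives TPM per gene, computed by the authors, with columns for group means and gene length that were not tested. Tools listed in the submitters' processing notes are HISAT2, StringTie, RSEM and CASAVA 1.8, with mm10 as the build. What each did, the annotation, filters and strand setting were not given in the sources used here. Depth is unknown, since TPM keeps none, so no counting intervals are given. At most 2.48% of values above 0 were equal between any pair of libraries.

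Values were transformed to log2(TPM + 1), a pseudocount of 1 TPM that understates changes of low genes, and genes averaging 1 TPM or more were tested. The limma model (limma 3.58.1, R 4.3.3) had a group term and an intensity trend, with two-sided p-values adjusted by the Benjamini-Hochberg method over 20343 genes. It was tested on simulated data. Standard errors are limma's moderated ones. Correlations used exact permutation of the pairings (Python 3.11.15). Positions are from GENCODE M21 and promoters from RefSeq, both for GRCm38, and all 5 genes matched by symbol.

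The TAM genes, lists and tests were chosen with earlier results of these data known. Named genes were the 5 TAM genes, the 3 most abundant genes of each list of related genes, and the 3 genes most correlated with each TAM gene, of which 1 is not reported here. Genes named for low levels, and Ggcx, Itgb5, Lrp1 and Cd36, were chosen after their values were seen. From each cell type list the 2 most abundant genes qualified. Alternatives were TMM rescaling (trimmed mean of M values, used only as a scaling factor per library), quantile normalization, a filter of 5 TPM or none, a pseudocount of 0.1, no intensity trend, array quality weights, a replicate block, and libraries left out. Coefficients of variation without single libraries were added after the data were seen.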

Additional observations from a re-analysis of the deposited data

Results flagged for a closer look

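Levels of the TAM genes and named genes were checked for a library far from the other 3 of its group, in 118 sets of 4 libraries. Chance flags about 1 set in 20, and 5 sets met the criterion, Dixon's test at its 95% critical value, none of them of a TAM gene. Tbl1x, chosen for its likeness to Pros1, was at 8.83 TPM in IgG replicate 4, against 5.85 to 6.32 TPM in the other IgG libraries. Nrde2, chosen for its likeness to Mertk, was at 10.4 TPM in anti-PD-L1 replicate 1, against 7.34 to 7.76 TPM. Maged1, chosen for its likeness to Tyro3, was at 88.9 TPM in anti-PD-L1 replicate 3, against 109 to 112 TPM. Becn1 was at 106 TPM in anti-PD-L1 replicate 2, against 99.0 to 100.2 TPM. The spermatocyte marker Sycp3 was at 263 TPM in anti-PD-L1 replicate 4, against 202 to 211 TPM.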

How the results depend on the processing

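The count of TAM genes past the threshold was 0 with all libraries and under all 17 alternatives; Mertk was not tested with a filter of 5 TPM. Tyro3, Gas6 and Pros1 kept a positive difference throughout, from 0.03 to 0.16, 0.06 to 0.15 and 0.06 to 0.23. With single libraries left out Axl ran from -0.062 to 0.075 and Mertk from -0.092 to 0.13. Mertk was at 0.045 with array quality weights and at 0.054 without both libraries that stand apart. Over all genes the count past the threshold was 0 and became 1 with a pseudocount of 0.1, 5 with array quality weights, 15 without IgG replicate 4, 3 without anti-PD-L1 replicate 4, 8 without both libraries that stand apart, and 1 without either IgG replicate 2 or anti-PD-L1 replicate 1. At an unadjusted p under 0.05 it went from 1063 to 2155 with array weights and 2009 without both libraries that stand apart.

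Same-numbered libraries did not deviate together (r of deviations from -0.20 to 0.10), and not every library correlated best with its own number. With the replicate block the count of TAM genes was 0, and Tyro3, Axl, Mertk, Gas6 and Pros1 kept their differences of 0.08, -0.01, -0.01, 0.09 and 0.12.

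The count of correlated pairs, 4 of 10, became 0 after TMM rescaling and 0 without both libraries that stand apart. In the latter setting fewer libraries remain, and a loss of calls need not mean a lower r. For Tyro3 with Mertk r rose there from 0.792 to 0.904, while the exact permutation p rose from 0.00729 to 0.0167. The count of relations with cell type lists, 0 of 50, became 2 with a pseudocount of 0.1. Without both libraries that stand apart Gas6 had r = 0.600 with Tyro3, 0.497 with Mertk and 0.802 with Pros1, and with macrophage markers Tyro3 had -0.032, Axl -0.446, Mertk -0.182 and Gas6 0.444. After TMM rescaling Gas6 had r = -0.014 with spermatogonia and 0.396 with elongating spermatid markers, and Tyro3 and Axl -0.061 and -0.078 with macrophage markers. The cause of these changes was not tested. Unknown depth limits what can be said of Mertk, the lowest gene.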
